A study of Mus musculus with 33 samples.

Results

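Lung cells that had been tagged with biotin in SAMENT mice were compared with untagged lung cells sorted alongside them. The comparison took in the 4 lung samples titled biotin positive and the 4 titled biotin negative from the intracardiac injection, 8 of the 33 samples of the series and of its 32 intracardiac ones. Cells entered if they carried at least 500 UMIs (unique molecular identifiers, 1 per captured mRNA molecule), at least 200 detected genes and at most 15% of UMIs from mitochondrial genes. This gave 17926 of the 55366 kept intracardiac cells, 7342 positive and 10584 negative. SAMENT is a niche labelling method in which injected tumour cells carry an enzyme that tags the cells next to them, so the positive sort stands for the neighbours of tumour cells and the negative sort for the rest of the organ. Both sorts came from the same kind of animal as far as the labels go: tissue lung, treatment intracardiac-injection, overnight exposure to the labelling substrate, then collagenase dissociation, sorting and 3′ library construction with CellPlex tags. The labels give neither strain, genotype, age nor the injected tumour line, and they do not say whether the 4 samples of a sort came from separate mice, so p-values measure the spread between these samples, which may be technical.

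The lung holds a resident macrophage population on the airspace side of the alveolus. Alveolar macrophages take up surfactant lipid and inhaled particles, and their identity depends on GM-CSF from the epithelium and on the nuclear receptor PPARγ, a lipid-activated transcription factor that binds DNA with RXR at repeats of a short half-site. Lung interstitium, vessels and blood add monocytes, dendritic cells, neutrophils and lymphocytes.

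Kept cells numbered 3074, 2373, 1217 and 678 in positive samples 1 to 4 and 2761, 2519, 2223 and 3081 in negative samples 1 to 4, and their summed UMIs ran from 4405925 to 24373461 per positive sample and from 9589559 to 15170122 per negative one. The filter removed 9.03% of barcodes in positive sample 1 and from 0.435% to 5.57% in the other 7. Median UMIs per cell were 7269.5, 9294, 5015 and 4428 in the positive samples and 3345, 3837, 3135 and 3588 in the negative ones, so that the groups did not overlap (mean difference 3025 UMIs; two-sided exact permutation p = 0.0286, the smallest 4 against 4 samples can give). Within 2 of the larger cell classes the depths overlapped: median UMIs of neutrophils were 3078 to 3955 in positive and 3153 to 3644.5 in negative samples, and those of monocytes were 5477 to 7852 and 6486 to 9325. Median genes per cell were 2363.5, 2981, 1431 and 1301.5 against 1168, 1108, 1252 and 1142 (difference 852, exact permutation p = 0.0286); without the alveolar macrophage-like cells described next, the difference in genes was 437 (exact permutation p = 0.343), while that in UMIs was 2184 with no overlap (exact permutation p = 0.0286). No barcode was shared by samples with the same number, while 341 were shared over 384 pairs of intracardiac samples with different numbers, at most 7 in a pair.

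Cells of the 32 intracardiac samples were clustered together, and a cluster was named from fixed marker lists. The lung cells fell mainly into alveolar macrophage-like, neutrophil, monocyte, T, B and NK classes and into cluster 20, which stayed unnamed and had Pf4, Spp1, Ppbp and Ccl2 among its leading genes. Alveolar macrophage-like cells, led by Plet1, Ear1, Atp6v0d2 and Krt79, made up 44.9%, 81.2%, 37.7% and 14.7% of positive samples 1 to 4 and 0.181%, 0.834%, 0.090% and 0.032% of negative samples 1 to 4. Every positive sample lay above every negative one, although the positive samples themselves spanned from 14.7% to 81.2%. The means were 44.6% ± 27.5 and 0.284% ± 0.371 (SD, n = 4 each), and the difference reached the smallest exact p of 0.0286 (adjusted over 15 classes 0.0429). As cell numbers in edgeR the log2 ratio of the class was 7.27 (adjusted p = 2.1e-05). Positive samples held 1379, 1926, 459 and 100 such cells, and negative samples 5, 21, 2 and 1.

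Cluster 20 was also more common in the positive sort, at 15.2%, 9.48%, 3.53% and 11.4% against 1.16%, 2.03%, 1.44% and 3.21%, with no overlap (difference 7.94 percentage points, exact p = 0.0286, adjusted 0.0429; edgeR adjusted p = 0.0301). Its leading genes include Pf4, a chemokine that platelets also store, and Spp1, which encodes osteopontin. When the lung samples were clustered alone, 957 of its 1027 cells (93.2%) fell into a class of 1051 cells that the same marker lists named macrophage, at 15.6%, 9.86%, 3.86% and 11.4% of positive and 1.30%, 1.75%, 1.35% and 3.31% of negative samples (exact p = 0.0286, adjusted 0.0429). Endothelial cells, the lining of vessels, were at 6.31%, 0.801%, 0.247% and 0.442% against 0.181%, 0.238%, 0.090% and 0% (exact p = 0.0286, adjusted 0.0429). Without any 1 negative sample their exact p was 0.314 to 0.429, and without positive sample 1 the difference went from 1.82 to 0.37 percentage points. Their lowest positive and highest negative sample lay close together, and the 0 of 3081 cells in negative sample 4 allow a share of up to 0.0974% (3 cells of the total, counting error only). For alveolar macrophage-like cells and cluster 20 the exact p without any 1 negative sample was 0.0571.

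Lymphocytes and monocytes made up less of the positive sort. T cells were at 2.12%, 0.295%, 2.88% and 6.93% of positive samples and 26.5%, 7.19%, 29.5% and 16.7% of negative ones (difference -16.9 percentage points, exact p = 0.0286, adjusted 0.0429; edgeR adjusted p = 0.0252). The highest positive sample lay just below the lowest negative one. Without any 1 positive sample the exact p was 0.0571 for T cells, B cells and monocytes and 0.257 to 0.286 for NK cells. B cells were at 2.11%, 0.295%, 2.05% and 5.01% against 10.1%, 6.27%, 24.5% and 10.6% (exact p = 0.0286, adjusted 0.0429). NK cells were at 0.169% to 0.553% in positive and 0.754% to 15.2% in negative samples, the high value being that of negative sample 1 (exact p = 0.0286, adjusted 0.0429). Monocytes were at 4.29%, 0.801%, 6.41% and 6.93% against 13.1%, 15.4%, 30.7% and 10.8% (exact p = 0.0286, adjusted 0.0429), and as cell numbers did not pass in edgeR (adjusted p = 0.059). Innate lymphoid cells were also lower (0.065% to 0.247% against 0.278% to 1.23%, exact p = 0.0286, adjusted 0.0429). As cell numbers they did not pass in edgeR (adjusted p = 0.0551), but did with the block (edgeR adjusted p = 0.0433). The unnamed cluster 7 was lower and a macrophage class of 92 cells higher (0.329% to 1.76% against 0% to 0.318%). Without the cells with the highest doublet scores cluster 7 went from 40 to 8 cells and overlapped (exact p = 0.257), and so did the macrophage class and the T cells (exact p = 0.0571 for each). In all, 10 of the 15 classes had an exact p of 0.0286; without 1 sample this number fell to between 3 and 7, and without the highest doublet scores to 7, each then with an adjusted p of 0.0612.

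Neutrophils did not separate the sorts. They made up 16.1%, 4.76%, 41.7% and 39.5% of positive samples and 28.0%, 63.4%, 4.18% and 46.0% of negative ones, so both sorts held samples rich and poor in neutrophils (exact p = 0.571, adjusted 0.643). Conventional dendritic cells overlapped as well, at 2.57% ± 1.40 and 2.34% ± 1.06 (SD, n = 4 each, exact p = 0.714). A share is relative to the other classes of its sample, and the alveolar macrophage-like class alone held 49.96%, 78.8%, 44.3% and 20.2% of the UMIs of the positive samples.

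**Figure D1:**
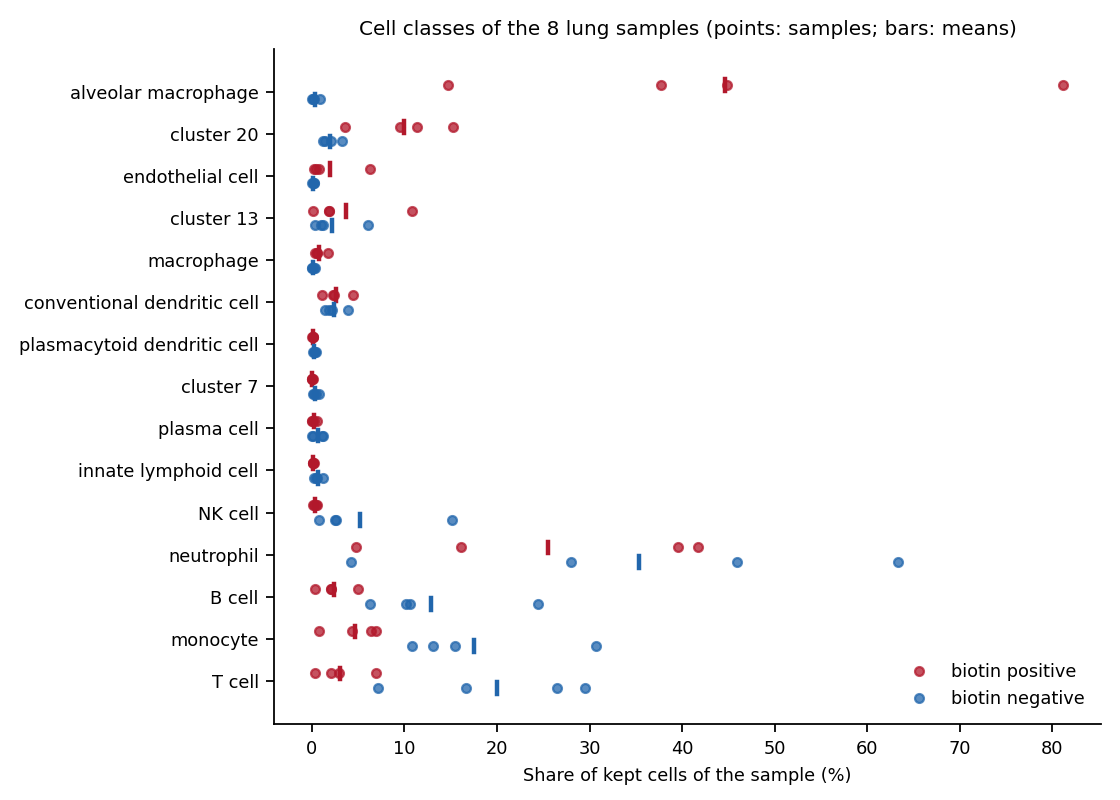
Share of kept cells (%, x axis) in each cell class for the 4 biotin positive and 4 biotin negative lung samples; points are samples and bars are group means. Alveolar macrophage-like cells lie between 14.7% and 81.2% in the positive samples and below 1% in the negative ones, while neutrophils overlap.

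The monocytes of the 2 sorts were drawn from the same clusters in different proportions. Cluster 17, led by Ace, Adgre4 and Cd300e, genes of nonclassical (patrolling) monocytes, held 60.6%, 42.1%, 39.7% and 44.7% of positive monocytes and 21.9%, 17.3%, 13.9% and 15.3% of negative ones. Cluster 2, led by Saa3, Vcan and Ccr2, genes of classical monocytes, held 37.1% to 60.3% of positive and 75.9% to 85.4% of negative monocytes. Positive sample 2 had only 19 monocytes. The clusters were looked at after their values were known, and these shares are given as a description.

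Alveolar macrophage-like cells also differed among the positive samples. When the lung samples were clustered alone, lung cluster 19, led by Gdf15, Plet1, Olr1 and Krt19, held 90.7% of this class in positive sample 1 and 0.975%, 12.8% and 14.6% in samples 2 to 4, whereas lung cluster 21, led by Krt79, Acaa1b, Ear1 and Lepr, held 5.08% in sample 1 and 96.4%, 81.6% and 85.4% in the others. Gdf15, a stress-responsive secreted member of the TGF-β family, was at 969, 372, 425 and 139 CPM (counts scaled to a total of 1000000) inside this class. Positive sample 1 was thus set apart within the class, and it is also the sample from which most barcodes were removed.

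**Figure D2:**
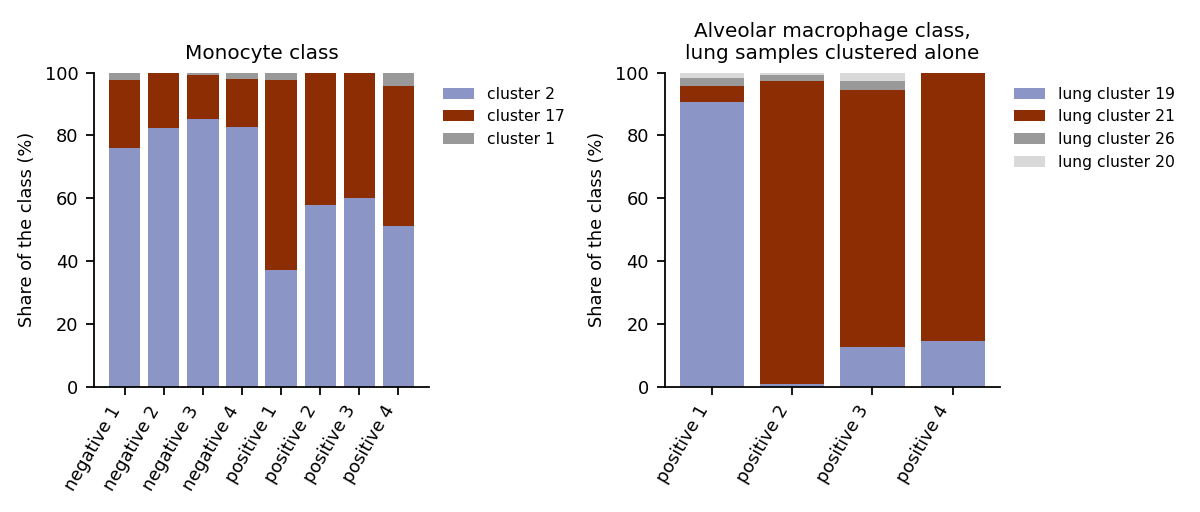
Share of the monocyte class (left, all 8 samples) and of the alveolar macrophage-like class (right, 4 positive samples) held by each cluster, in % of the class. Cluster 17 takes 39.7% to 60.6% of positive and 13.9% to 21.9% of negative monocytes; lung cluster 19 takes 90.7% of the right-hand class in positive sample 1 and at most 14.6% elsewhere.

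Expression was then compared over all kept cells, with the counts of a sample summed. In such sums, fewer cells of a type and less RNA per cell cannot be told apart. edgeR's quasi-likelihood test with Benjamini-Hochberg adjustment over 12331 genes called 1416 genes higher in the positive sort (11.5%) and 838 lower (6.80%), at an adjusted p under 0.05. For 13.4% of genes all positive samples lay above all negative ones and for 10.2% all lay below. Counts of called genes in the lists below are to be read beside the 11.5% and 6.80% over all genes. Values per sample below are CPM after TMM scaling, in the order of samples 1 to 4, and a fold change is the edgeR log2 difference, positive minus negative, with its standard error. The count of calls moved when single samples were left out, to 1280 without negative sample 4, 1285 without negative sample 1, 1342 without positive sample 2 and 1400 without positive sample 1, it was 1249 (1002 higher and 247 lower) when every cell carried equal weight in limma, and it was 2563 (20.8%) with the replicate number as a block.

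The genes by which alveolar macrophages are recognised were higher in the positive sort. Of the 16 genes of the identity list, all were tested and 15 were called higher, with a median log2 difference of 4.65 against -0.04 over all genes. Most of these genes also served to name the cluster, so the count follows the shares above. A gene that was measurable only where these cells were present could pass the low-count filter through the positive sort alone. Plet1 (ENSMUSG00000032068), a surface protein first known from the placenta, was at 753, 872, 428 and 208 CPM in positive samples and 19.2, 34.1, 2.56 and 2.90 CPM in negative ones. The groups lay far apart (5.27, SE 0.94, edgeR adjusted p = 0.00739), and the positive samples stood in the order of their share of the class, with sample 2 highest and sample 4 lowest. Fabp1, a fatty acid binding protein, was at 182, 151, 314 and 114 CPM against 2.13, 5.62, 0.887 and 0 CPM (6.50, SE 0.96, edgeR adjusted p = 0.00371); the 0 counts among 15170122 UMIs of negative sample 4 allow up to 0.198 CPM before TMM scaling. Il18, an interleukin of the IL-1 family, was at 257, 310, 214 and 141 CPM against 15.7, 29.0, 16.3 and 15.9 CPM (3.59, SE 0.32, edgeR adjusted p = 0.000823).

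Slc39a2, a zinc transporter, was at 24.0, 22.6, 23.7 and 7.31 CPM against 0.381 to 1.51 CPM (4.48, SE 0.50, edgeR adjusted p = 0.002). Ear2, an eosinophil-associated ribonuclease, was at 616 to 1583 CPM against 40.0 to 120 CPM (4.08, SE 0.46, edgeR adjusted p = 0.002). Ear1 and Ear2 have close copies: over the last 500 bases of their transcripts, 26.5% and 9.73% of 90-base windows were shared with other Ear genes. Reads from such windows could not be told apart by sequence, so both are uncertain. For Chil3, given below, 8.76% of windows were shared with Chil4. Marco, a scavenger receptor, was the one member that did not pass, at 176, 346, 512 and 162 CPM against 5.32, 95.5, 6.11 and 2.67 CPM, where negative sample 2 stood above the other negative samples (3.45, SE 1.12, edgeR adjusted p = 0.061). Chil3, a chitinase-like protein made by monocytes and neutrophils too, overlapped between the sorts, at 4055 to 17215 CPM against 1820 to 4240 CPM (1.67, SE 0.44, edgeR adjusted p = 0.0318), and its difference was -0.80 without the alveolar macrophage-like clusters.

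Pparg (ENSMUSG00000000440), which encodes PPARγ, was at 59.2, 74.5, 73.7 and 26.2 CPM in positive and 2.75, 3.89, 2.37 and 1.37 CPM in negative samples. The groups did not overlap, and positive sample 4, with the smallest share of these cells, was the lowest of its group (4.51, SE 0.42, edgeR adjusted p = 0.000947). Of the 15 tested regulators of alveolar macrophages 5 were called higher and 1 lower, with a median of 0.64. Car4, a carbonic anhydrase, was among the higher ones (4.55, SE 0.71, edgeR adjusted p = 0.00448). The lower one was Bach2, a repressor that keeps lymphocytes from differentiating, at 6.34, 4.53, 6.11 and 7.76 CPM against 31.5, 16.9, 36.4 and 18.2 CPM (-2.08, SE 0.30, edgeR adjusted p = 0.00359). Of the 13 nuclear receptors tested, Pparg included, 4 were called higher and 0 lower. Among them were Rxra, a partner of PPARγ, at 23.9 to 52.4 CPM against 5.50 to 13.1 CPM (2.05, edgeR adjusted p = 0.00527), and Nr1h3, which encodes the oxysterol receptor LXRα, at 17.3 to 33.1 CPM against 1.98 to 11.3 CPM (2.39, edgeR adjusted p = 0.015). The median of the 13 was -0.12.

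Since the identity genes and Pparg moved together, the 300 bases around their start sites (250 before and 50 after, RefSeq, build GRCm38.p6) were searched for the nuclear receptor half-site AGGTCA and its reverse complement TGACCT. It was present in 16.3% of 32851 promoters, in the promoters of 2 of the 14 identity genes with an entry (Fabp1 and Plet1), and at 2 of 3 start sites of Pparg. These promoters are shown because they belong to the identity genes that hold the letters and to the receptor itself; capitals mark the half-site. The first match lay 67 bases before the start in Fabp1 (chr6:71199629-71199928, plus strand), 62 bases before it in Plet1 (chr9:50494275-50494574, plus strand) and 28 bases before it in Pparg (chr6:115360894-115361193, plus strand). A match is a run of letters, not a shown binding site.
Fabp1: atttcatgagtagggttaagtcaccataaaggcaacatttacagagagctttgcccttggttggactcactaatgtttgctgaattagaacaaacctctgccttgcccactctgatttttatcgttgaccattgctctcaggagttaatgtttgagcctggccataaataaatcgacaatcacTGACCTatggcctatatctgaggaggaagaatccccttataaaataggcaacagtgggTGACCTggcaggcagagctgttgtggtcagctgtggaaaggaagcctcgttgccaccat
Plet1: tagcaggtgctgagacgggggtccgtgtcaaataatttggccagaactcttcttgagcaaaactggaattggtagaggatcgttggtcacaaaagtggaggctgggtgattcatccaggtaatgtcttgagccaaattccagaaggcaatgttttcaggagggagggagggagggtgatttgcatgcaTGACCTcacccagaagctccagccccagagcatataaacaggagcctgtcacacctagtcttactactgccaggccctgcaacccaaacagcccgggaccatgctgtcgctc
Pparg: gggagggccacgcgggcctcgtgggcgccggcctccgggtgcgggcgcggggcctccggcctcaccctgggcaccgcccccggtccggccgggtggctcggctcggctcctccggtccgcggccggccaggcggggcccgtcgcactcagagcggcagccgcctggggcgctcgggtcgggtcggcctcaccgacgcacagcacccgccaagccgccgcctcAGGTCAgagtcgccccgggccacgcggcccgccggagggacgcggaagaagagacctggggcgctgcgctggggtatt

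Levels of these genes inside the alveolar macrophage-like cells varied less between the positive samples than the share of these cells did. Within the class Plet1 was at 1680, 1319, 946 and 1004 CPM, Pparg at 131, 111, 162 and 123 CPM, and Lpl, which encodes lipoprotein lipase, at 2379, 2189, 2852 and 2419 CPM. Fabp1 ranged from 230 to 698 CPM and Marco from 361 to 1133 CPM, both highest in positive sample 3. The negative samples held at most 21 such cells, so no test between the sorts was made within the class.

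Lipid handling genes were higher in the positive sort: 12 of 18 tested were called higher and 0 lower, with a median of 1.93. Lpl was at 1129, 1468, 1287 and 503 CPM against 3.96 to 72.5 CPM (5.33, SE 0.87, edgeR adjusted p = 0.00531). Fabp4, a fatty acid carrier, was at 107 to 382 CPM against 10.8 to 25.8 CPM (3.91, SE 0.46, edgeR adjusted p = 0.00213). Abcg1, which exports cholesterol, was at 509, 1009, 574 and 306 CPM against 62.8, 93.6, 35.9 and 41.9 CPM (3.36, SE 0.44, edgeR adjusted p = 0.0025). In all 3 of these genes the lowest positive sample was sample 4 and no negative sample reached it. Lipa, the lysosomal acid lipase, differed by 2.15 (edgeR adjusted p = 0.00292), and Cd36, a fatty acid and lipoprotein receptor, by 3.37 (edgeR adjusted p = 0.00531).

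Enzymes of cholesterol synthesis differed by smaller amounts, with 8 of 20 called higher, 0 lower and a median of 0.72. Hmgcs1, an early enzyme of the pathway, was at 37.4, 63.2, 62.1 and 32.4 CPM against 18.5, 16.0, 10.2 and 14.3 CPM (1.73, SE 0.28, edgeR adjusted p = 0.00516). Mvd, which makes isopentenyl diphosphate, was at 15.3 to 20.4 CPM against 6.60 to 10.3 CPM (1.20, SE 0.20, edgeR adjusted p = 0.00575). Of 23 lysosomal genes 15 were called higher and 0 lower, with a median of 0.96. Ctsd, the protease cathepsin D, was at 2133, 4258, 3396 and 1855 CPM against 335, 938, 352 and 527 CPM (2.44, SE 0.41, edgeR adjusted p = 0.00625), and the groups did not overlap. Hexa, a lysosomal hexosaminidase, differed by 1.42 (edgeR adjusted p = 0.00213) and Mitf, a transcription factor of lysosomal genes, by 1.90 (edgeR adjusted p = 0.00579).

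Genes of lipid-associated macrophages were higher too. Of 12 lipid-associated genes 8 were called higher and 0 lower. Spp1 was at 829, 441, 301 and 1040 CPM against 45.3, 118, 42.5 and 138 CPM (2.92, SE 0.53, edgeR adjusted p = 0.00796). Positive samples 1 and 4, where Spp1 was highest, also held the largest shares of cluster 20. Gpnmb and Cd9, a glycoprotein and a tetraspanin of lipid-laden macrophages, differed by 3.28 and 2.91 (edgeR adjusted p = 0.00681 and 0.00569), and Slc7a2, an arginine transporter, and the elastase Mmp12 by 5.27 and 2.18 (edgeR adjusted p = 0.00407 and 0.0125).

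Receptors that take up dead cells and modified lipoproteins were another group. Of 15 scavenger and efferocytosis receptors 7 were called higher and 0 lower. Mertk, a receptor tyrosine kinase that binds dying cells, was at 165, 265, 178 and 75.8 CPM against 2.75 to 22.5 CPM (4.29, SE 0.73, edgeR adjusted p = 0.00628), and its relative Axl was at 112 to 361 CPM against 3.12 to 33.5 CPM (4.13, edgeR adjusted p = 0.00701). Mrc1, the mannose receptor, was at 373 to 1287 CPM against 13.9 to 91.0 CPM (4.44, SE 0.72, edgeR adjusted p = 0.00531). In all 3 genes negative sample 2 was the highest of its group; it also held the most alveolar macrophage-like cells of the negative samples. Of 15 genes of C1q-type resident macrophages 6 were called higher, with C1qb at 1.91.

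Among 23 chemokines 6 were called higher (26.1%, against 11.5% of all genes) and 0 lower, with a median of 1.37. Ccl8, a monocyte chemoattractant, was at 11.5, 12.6, 4.32 and 37.9 CPM against 0.355, 1.30, 1.58 and 0.762 CPM (4.04, SE 0.71, edgeR adjusted p = 0.0069). Cxcl14 was at 16.0, 13.6, 10.9 and 18.0 CPM against 0.621, 2.38, 0.887 and 3.28 CPM (3.01, SE 0.48, edgeR adjusted p = 0.00487). Both were apart in every sample and low in level. Cxcl16, the ligand of CXCR6, differed by 1.48 (edgeR adjusted p = 0.016). Of 16 growth and angiogenic factors 5 were called higher (31.25%, against 11.5% of all genes). Among them were Pdgfc (4.13, edgeR adjusted p = 0.00996), Gdf15 (4.42, edgeR adjusted p = 0.014) and Vegfb (1.45, edgeR adjusted p = 0.0146).

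Of 16 inhibitory ligands and immune suppressive genes 5 were called higher (31.25%, against 11.5% of all genes) and 0 lower. The median of the list was 0.08. Cd274, which encodes the checkpoint ligand PD-L1, was at 104, 78.6, 99.7 and 82.0 CPM against 45.5, 31.8, 26.5 and 45.6 CPM (1.28, SE 0.21, edgeR adjusted p = 0.00581). The 2 groups were narrow and apart. Cd200r1, an inhibitory receptor, and Sirpa, the receptor of CD47, differed by 1.59 and 1.56 (edgeR adjusted p = 0.00796 and 0.00822). Cell cycle genes were higher as well, with 9 of 18 called (50%, against 11.5% of all genes) and 0 lower. Mki67 was at 55.7, 35.8, 29.0 and 48.3 CPM against 20.8, 11.6, 15.3 and 24.2 CPM (1.23, SE 0.28, edgeR adjusted p = 0.019). Cdk1 and Tubb5 differed by 1.56 and 0.92. When the lung samples were clustered alone, a cycling cluster led by Top2a, Pclaf and Mki67 held 219 positive and 28 negative cells.

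Genes of vessels and epithelium did not move as 1 group. Of 13 endothelial genes 3 (Vwf, Flt1 and Calcrl) were called higher (23.1%, against 11.5% of all genes), with a median of 2.75. Vwf, the clotting factor of endothelial cells, was at 25.9, 13.4, 14.9 and 7.98 CPM against 1.77, 2.92, 1.18 and 0.533 CPM (3.31, SE 0.52, edgeR adjusted p = 0.00476). Only 3 of 14 fibroblast and mural genes could be tested, and 0 were called; Col1a2, a collagen chain, had 230, 150, 2 and 1 UMIs in positive and 2, 2, 1 and 1 in negative samples, so positive samples 1 and 2 carried nearly all of it. Of 6 tested lung epithelial genes 2 were called higher and 1 lower (33.3% and 16.7%, against 11.5% and 6.80% of all genes). The lower one, Napsa, which encodes the aspartic protease napsin A, was at 107, 66.3, 131 and 195 CPM against 285, 368, 338 and 374 CPM with no overlap (-1.46, SE 0.30, edgeR adjusted p = 0.0134), and monocytes of negative samples held it at 499 to 717 CPM. Sftpc, the surfactant protein of type 2 epithelium, was at 102, 1.74, 112 and 6.65 CPM against 0.864 to 3.75 CPM and overlapped (4.86, SE 1.25, edgeR adjusted p = 0.0285), as did Scgb1a1 of club cells, whose positive value of 80.5 CPM in sample 1 stood above 2.98 to 15.3 CPM in the others (3.09, edgeR adjusted p = 0.0449, and 0.13 with the replicate number as a block). Cdh1, Epcam and Krt19, the only 3 of 12 general epithelial genes that could be tested, were called higher (2.60, 2.90 and 4.75). Without the alveolar macrophage-like clusters they differed by 0.30, 1.18 and 1.14, and 0 were called (edgeR adjusted p = 0.852, 0.231 and 0.669). Krt19 also leads lung cluster 19 of the alveolar macrophage-like class.

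Lymphocyte genes were lower. Of 16 T cell genes 15 were called lower and 0 higher, with a median of -3.004. Cd8a (ENSMUSG00000053977), the CD8 co-receptor chain, was at 1.39, 0.314, 1.34 and 0.665 CPM in positive and 13.3, 4.11, 14.6 and 15.3 CPM in negative samples (-3.68, SE 0.57, edgeR adjusted p = 0.00452). Il7r, the IL-7 receptor of naive and memory T cells, was at 38.0, 33.9, 41.1 and 63.8 CPM against 224, 102, 258 and 216 CPM (-2.19, SE 0.32, edgeR adjusted p = 0.0036). For both genes negative sample 2, which had the smallest T cell share of its group, was the lowest negative sample and still above every positive one. Tcf7, a transcription factor of naive T cells, differed by -3.25 (edgeR adjusted p = 0.00633).

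Of 15 tested genes of T cell activation and checkpoints 10 were called lower and 0 higher, Icos (-3.31) and Il2ra (-2.90) with the smallest p. Of 17 NK and cytotoxic genes 14 were called lower: Klrb1c, the NK1.1 receptor, was at 3.78, 1.08, 2.09 and 2.66 CPM against 71.5, 5.19, 17.3 and 21.4 CPM (-3.59, SE 0.77, edgeR adjusted p = 0.0151), and Gzma, a granzyme, was at 11.1 to 51.0 CPM against 63.6 to 1375 CPM (-4.09). Negative sample 1 stood far above the rest in both, as it did in the share of NK cells, whose difference went from -4.89 to -1.58 percentage points without it. The main CellPlex tag led 92.8% of the barcodes of that sample and 98.5% to 100% of those of the other 7; its part in these values was not tested. Of 14 B cell genes 9 were called lower: Ighd, the heavy chain of IgD, was at 9.48, 1.57, 6.85 and 18.8 CPM against 47.1, 31.3, 68.0 and 49.8 CPM (-2.48, SE 0.61, edgeR adjusted p = 0.0234), and Ebf1, a B lineage transcription factor, differed by -2.56. Positive sample 2, with the fewest lymphocytes, was the lowest for all of these genes.

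Of 11 classical monocyte genes 5 were called lower, among them Plac8 at 220, 51.9, 476 and 393 CPM against 1212, 1089, 2301 and 913 CPM (-2.27, SE 0.61, edgeR adjusted p = 0.032) and Ccr2, the receptor that brings monocytes out of marrow, at 105, 24.4, 131 and 144 CPM against 211, 404, 718 and 339 CPM (-2.05, SE 0.55, edgeR adjusted p = 0.0323). The 1 higher member was Chil3. Of the neutrophil granule list 0 of 18 genes were called, with a median of -0.76, as with 0 of 17 interferon-stimulated genes (median -0.25), 0 of 18 glycolysis genes (0.09) and 0 of 16 immediate early genes (-0.21). Among 15 MHC class II and dendritic cell genes 2 were called lower (13.3%, against 6.80% of all genes). The median of that list went from -0.51 to 0.31 without the alveolar macrophage-like clusters.

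The genes with the smallest p were spread over functions. Phlda3, a p53-responsive inhibitor of AKT signalling, was at 32.2, 46.2, 61.5 and 25.0 CPM against 1.24, 2.05, 1.87 and 1.30 CPM (4.68, SE 0.35, edgeR adjusted p = 0.000758). Dhrs7b, a peroxisomal enzyme of ether lipid synthesis, was at 70.0, 75.0, 101 and 50.5 CPM against 10.0, 9.29, 10.5 and 8.53 CPM (2.95, SE 0.22, edgeR adjusted p = 0.000758). The negative samples were tight for these genes, while the positive ones ran from 25.0 to 61.5 CPM and from 50.5 to 101 CPM. The other 10 on the higher side were Plxdc2 (3.10), Dst (4.04), Ppnr (4.05), Nagk (2.02), Slamf9 (3.42), Lhfpl2 (3.21), Ahnak2 (4.34), Dpp7 (2.35), Ppfibp1 (2.33) and Cd200r4 (3.65).

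On the lower side Pdcd4, an inhibitor of translation, came first at 43.4, 59.4, 69.1 and 70.7 CPM against 198, 184, 250 and 158 CPM (-1.71, SE 0.22, edgeR adjusted p = 0.00231). Besides Bach2, Il7r and Cd8a, the others were Lefty1 (-2.35), Sesn1 (-1.54), Rnf145 (-1.15), Calca (-4.21), Unc119b (-1.33), Tmc8 (-1.94), Emb (-1.31) and Trat1 (-3.84), the last a T cell receptor adaptor. In each of these 12 genes the highest positive sample lay below the lowest negative one, which is how they were chosen.

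The calls over all cells were then set beside the same test without the alveolar macrophage-like clusters. Only 6 of 11983 genes were then called (0.0501%), all higher: H2-M2, Ccl8, Apol7c, Pdgfa, Cxcl14 and Fblim1. An unadjusted p under 0.05 was found for 1823 genes, DESeq2 called 706, and edgeR with the replicate number as a block called 361. Of the 1416 genes called higher over all cells 1198 could still be tested, and 1112 of them kept a positive difference, with a median of 0.79; of the 838 called lower, 829 of 835 tested kept a negative one, with a median of -0.76. Of the genes called over all cells, 6 higher and 0 lower ones were still called by edgeR, 305 and 183 by DESeq2, and 134 and 128 with the block.

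Genes differed in how much of their difference went with these clusters. Dhrs7b went from 2.95 to 0.52, Ear2 from 4.08 to 0.48, Abcg1 from 3.36 to 0.75 and Hmgcs1 from 1.73 to 0.32. Ahnak2, a large scaffold protein, hardly moved (4.34 and 4.13), nor did Lhfpl2 (3.21 and 3.19), Cd36 (3.37 and 3.26) or Ctsk, which encodes cathepsin K (5.55 and 5.83). Differences of the chemokine list were larger without the clusters, with a median of 2.56 against 1.37. Medians of the T cell and NK lists were -2.32 and -2.59 without the clusters. Inside the positive samples, 77.8% of the genes called higher had a higher level in alveolar macrophage-like cells than in the other cells of the same sample in 4 of 4 samples, against 40.7% of all genes tested. These same positive samples gave the calls, and the class held 20.2% to 78.8% of their UMIs. In negative samples it held 0.0201% to 1.73%. The 77.8% was therefore largely fixed by how the genes were called and is given as a description.

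**Figure D3:**
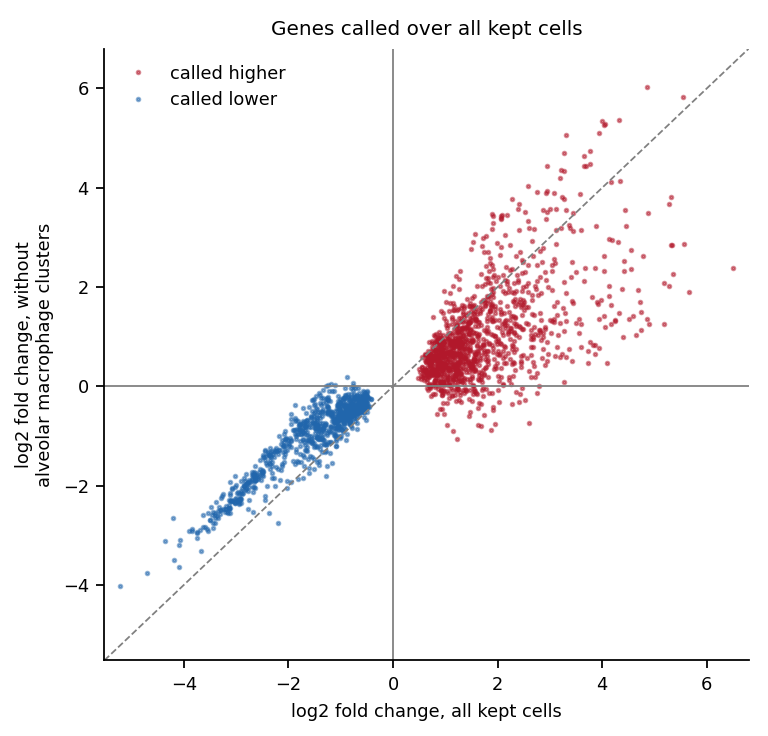
Each point is a gene called over all kept cells; the x axis is its log2 fold change (positive minus negative) over all cells and the y axis the same without the alveolar macrophage-like clusters, with the dashed line marking equal values. Most points keep their sign, and the median of the genes called higher goes to 0.79 and that of the genes called lower to -0.76.

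Further classes were then left out. Without all mononuclear phagocyte-like clusters 33 of 11222 genes were called (0.294%), against 6 of 11983 without the alveolar macrophage-like clusters alone. Without cluster 20 as well, edgeR called 0 of 10760 genes, with 1071 at an unadjusted p under 0.05, while DESeq2 called 286 and edgeR with the block 33. Identity genes were also counted in other classes. Without Chil3 they summed to 30.03, 226, 72.1 and 8.1 CPM in T, B and NK cells of negative samples and to 300.1, 475, 70.6 and 39.1 CPM in those of positive samples, against 10380 to 13266 CPM in the alveolar macrophage-like cells of positive samples. Cluster 20 held 353 to 679 CPM in negative and 557 to 2764 CPM in positive samples. In sample 3 the T, B and NK cells of both sorts held about the same. The source of these counts and their part in the results were not tested.

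**Figure D4:**
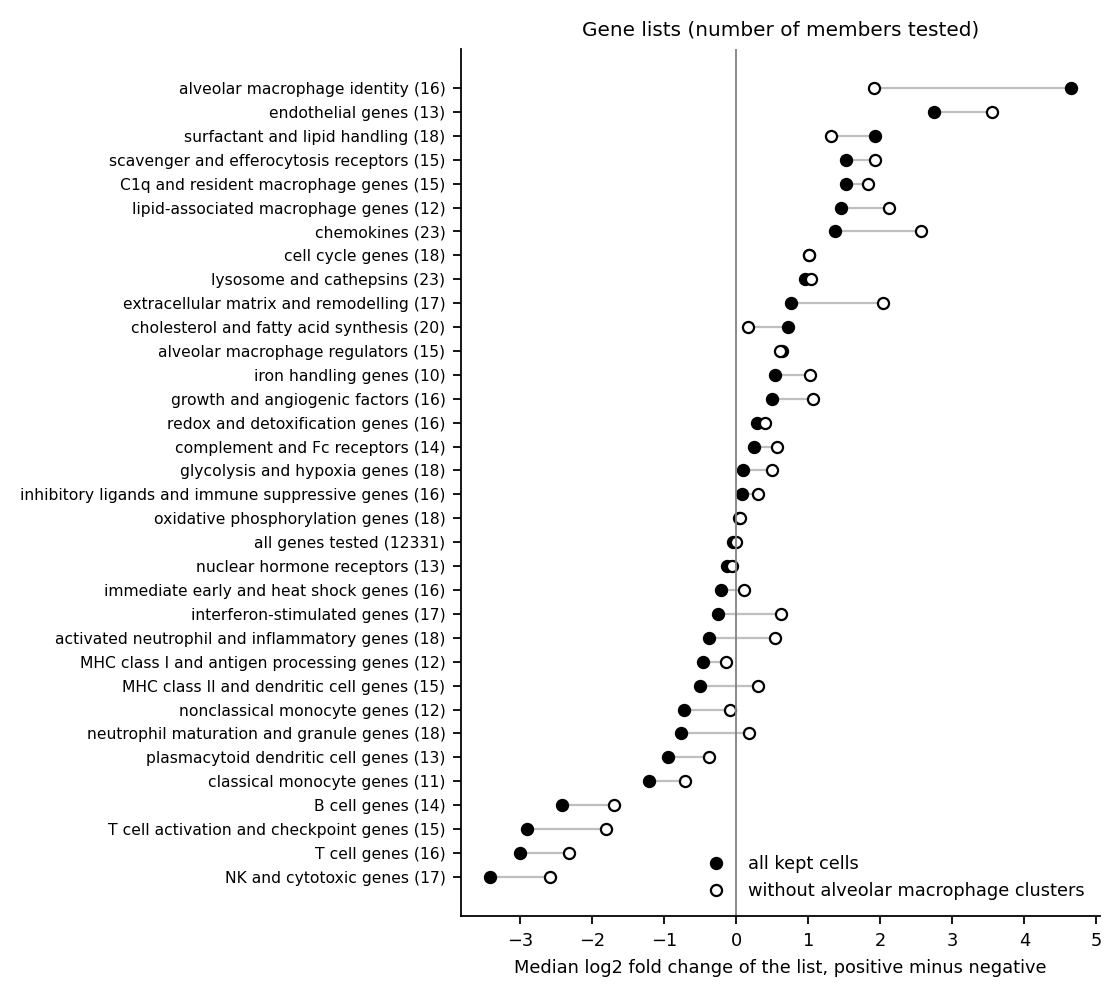
Median log2 fold change (x axis, positive minus negative) of the tested members of each reported gene list with 10 or more of them, over all kept cells (filled) and without the alveolar macrophage-like clusters (open); the number of members tested is in brackets. The identity list goes from 4.65 to 1.91, while the T cell list stays at -3.004 and -2.32.

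How many genes were called within a class depended on the test: edgeR called 0 to 9 in the 7 classes tested, DESeq2 up to 96, and edgeR with the replicate number as a block up to 419. In cluster 20 edgeR called 9 of 5701 genes (0.158%; 0.105% higher and 0.0526% lower; 764 at an unadjusted p under 0.05, 96 by DESeq2, and 419 or 7.35% with the replicate number as a block), but 0 when the lung samples were clustered alone or when the cells with the highest doublet scores were left out, and 0 to 3 when any 1 sample was left out. Atp6v0d2, a subunit of the vacuolar proton pump that is also an alveolar macrophage marker, was at 54.6, 230, 139 and 146 CPM against 3.48, 26.1, 4.28 and 8.63 CPM (3.56, SE 0.57, edgeR adjusted p = 0.0498). Itga6, the laminin receptor subunit, was at 126, 54.7, 148 and 243 CPM against 24.4, 21.7, 4.28 and 14.4 CPM (3.05, SE 0.52, edgeR adjusted p = 0.0498). Both genes were apart in every sample, and the part of the identity gene RNA in this cluster, given above, was not tested. Igfbp4 (2.32), Fblim1 (1.70), Zbtb20 (1.81) and the metalloproteinase inhibitor Timp2 (1.84) were also higher, and Il1r2, the decoy receptor of IL-1, and Cytip were lower (-1.78 and -1.17), all at an edgeR adjusted p of 0.0498.

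In conventional dendritic cells 3 of 4614 genes were called (0.0650%; 0.0433% higher and 0.0217% lower; 432 at an unadjusted p under 0.05, 43 by DESeq2). Ifitm6, an interferon-induced transmembrane family member of myeloid cells, was at 73.3, 63.8, 120 and 57.4 CPM against 301, 508, 411 and 298 CPM (-2.22, SE 0.29, edgeR adjusted p = 0.0284). Cd81, a tetraspanin, was at 286, 345, 231 and 204 CPM against 35.4, 90.9, 42.6 and 89.9 CPM (2.11, SE 0.32, edgeR adjusted p = 0.04). Timp2 differed by 1.98 (edgeR adjusted p = 0.04), and all 3 genes were apart in every sample. Same-numbered samples deviated together in this class and in monocytes and neutrophils (all 4 correlations above 0.1) and in B cells (all 3), and with the replicate number as a block 59 genes (1.28%) were called in dendritic cells. Without positive sample 1 the count in this class was 19 and without positive sample 4 it was 8. It was 2 without negative sample 1 and 0 without positive sample 2, negative sample 3 or negative sample 4.

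In monocytes edgeR called 0 of 7817 genes (537 at an unadjusted p under 0.05, 34 by DESeq2), and 316 (4.04%) with the replicate block; without negative sample 1 it called 14. In neutrophils it called 0 of 6295 genes (39 at an unadjusted p under 0.05, 0 by DESeq2), and 14 (0.222%) with the block. In cluster 13, which stayed unnamed and was led by Rsad2, Cxcl3 and Ccl3, it called 0 of 1739 genes (22 at an unadjusted p under 0.05, 0 by DESeq2), and 2 (0.115%) with the block. T cells (0 of 6274, 215 at an unadjusted p under 0.05, 0 by DESeq2) and B cells (0 of 5023, 178 at an unadjusted p under 0.05, 0 by DESeq2) rested on 3 positive samples, since positive sample 2 had 7 cells of each class. The smallest positive samples held 25 B cells, 35 T cells and 19 monocytes.

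The last comparison asked where the biotin difference of lung departed from that of bone, brain and liver, each with 4 positive and 4 negative samples. edgeR called 355 of 13963 genes (2.54%), 269 (1.93%) with a larger difference in lung than the mean of the other 3 tissues and 86 (0.616%) with a smaller one; with the replicate block it called 1022 (7.32%). The count was 143 without positive sample 2, 193 without negative sample 1, 216 without negative sample 3, 217 without negative sample 4 and 228 without positive sample 3. Alveolar macrophage identity genes accounted for 6 of the 16 listed (Ear1, Ear2, Fabp1, Chil3, Siglecf and Slc39a2). The medians of that list were 4.70 in lung, 0.58 in bone, 0.32 in brain and 1.35 in liver. Pparg was called as well (4.56 in lung, 2.24 in bone, 0.23 in brain and 1.34 in liver), as were the lipid genes Abcg1, Olr1 and Plin2.

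The 6 genes with the smallest p on the higher side included metabolic enzymes. Cyb561a3, a lysosomal reductase of the cytochrome b561 family, differed by 2.77 in lung against -0.42 in bone, -0.05 in brain and -0.76 in liver (difference 3.18, SE 0.31, edgeR adjusted p = 9.9e-07). Dhrs7b differed by 2.998 against 0.31, 0.48 and 0.26 (difference 2.65), and Mvd by 1.25 against -0.69, -0.92 and -0.73 (difference 2.03), so Mvd went the other way in the other tissues. The remaining 3 were Aifm2 (3.01), which protects membranes from lipid peroxidation, Sept9 (2.38) and Pqlc3 (2.32). On the lower side were Cacna1a (-2.70), Fbxo17 (-2.62), Tut4 (-1.68), Il21r (-2.79), Lpar6 (-1.84) and Tnk2 (-1.66). Of the T cell, NK, B cell and lysosome lists 0 of 16, 0 of 17, 0 of 14 and 0 of 23 genes were called, so a difference between lung and the mean of the other tissues was not shown for them.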

How the data were processed

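Single-cell gene expression was measured in 8 lung samples. Gene counts (UMIs per gene and cell) were made by the authors with Cell Ranger on build mm10, per the submitters' processing notes, and the deposited matrices name version 6.1.2, per the file headers. Samples were demultiplexed by CellPlex tag, per the labels; tag counts in the same matrices were left out of the sums and tests. Seurat is named in the submitters' notes, with no role given.

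Cells were clustered over all 32 intracardiac samples with scanpy 1.11.5 (10000 counts per cell, log scale, 2000 variable genes, 30 components, 15 neighbours, Leiden resolution 1.0) and named from marker lists, a cluster needing at least 3 markers among its 100 leading genes. Doublets were not removed; leaving out the 5% of cells of each sample with the highest Scrublet score was an alternative. Counts were summed per sample and tested with edgeR 4.0.16 (TMM, filterByExpr, quasi-likelihood), with DESeq2 1.42.0 and limma 3.58.1 (log2 of the mean count per 10000 plus 0.01) as alternatives. Genes were called at an adjusted p under 0.05. A class was tested where at least 3 samples of each sort held 10 cells or more. Shares were compared by two-sided exact permutation of 70 assignments and adjusted over 15 classes of at least 20 cells. The scripts were tested on simulated data.

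Named genes were the 12 higher and 12 lower genes with the smallest p among called genes whose groups did not overlap, up to 3 tested members of each list by p, and 6 higher and 6 lower per class and for the comparison of tissues; predicted genes were not named. Plet1, Ear1, Fabp1, Marco, C1qa, Pdgfa, H2-M2, Apol7c, Fblim1, Siglecf, Olr1 and Plin2 were named after their values were seen. Results of 1 gene and 1 gene list are not reported here. The members and gene lists were chosen with earlier results of these data known. The pooled bone sample of the series was not used here.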

Additional observations from a re-analysis of the deposited data

Results flagged for a closer look

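In groups of 4 samples, 1 sample stood apart from the other 3 in 19 of 218 groups tested by Dixon's criterion; chance gives about 1 in 20. Among the shares, NK cells reached 15.2% in negative sample 1, endothelial cells 6.31% in positive sample 1, cluster 7 0.0651% in positive sample 1, and cluster 13 10.8% in positive sample 4 and 6.00% in negative sample 4. Among genes, negative sample 2 was the high one for Marco (95.5 CPM), Mrc1 (91.0 CPM), Il18 (29.0 CPM), Ctsk (17.5 CPM), Axl (33.5 CPM), C1qa (118 CPM), Nr1h3 (11.3 CPM), Pdgfc (2.27 CPM) and Dpp7 (3.78 CPM). That sample also held 21 of the 29 alveolar macrophage-like cells of the negative sort; their part in these values was not tested. Negative sample 4 was high for Nagk (11.2 CPM), positive sample 1 for Calcrl (116 CPM) and Scgb1a1 (80.5 CPM), positive sample 3 was low for Sesn1 (6.11 CPM) and positive sample 4 for Slc39a2 (7.31 CPM).

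The biotin difference of lung departed from the mean of bone, brain and liver in the tested contrast. On the log2 scale the excess was 6.27 for Fabp1, 5.06 for Ear1, 4.08 for Ear2, 3.91 for Slc39a2, 3.29 for Pparg, 3.27 for Siglecf, 3.23 for Olr1, 2.74 for Chil3, 2.71 for Abcg1 and 1.46 for Plin2. It was 3.18 for Cyb561a3, 3.01 for Aifm2, 2.65 for Dhrs7b, 2.38 for Sept9, 2.32 for Pqlc3 and 2.03 for Mvd. It was negative for Il21r (-2.79), Cacna1a (-2.70), Fbxo17 (-2.62), Lpar6 (-1.84), Tut4 (-1.68) and Tnk2 (-1.66).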

How the results depend on the processing

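Over all cells the replicate numbers were not shown to pair all samples: the deviations of same-numbered samples correlated at 0.476, 0.238, -0.092 and 0.481. Within monocytes they correlated at 0.503, 0.204, 0.262 and 0.302, and within neutrophils at 0.637, 0.412, 0.353 and 0.537. Sample 3 was at 0.0785 within cluster 20 and 0.0798 within T cells. What a replicate number stands for is not given in the labels. With the number as a replicate block edgeR called 2563 genes over all cells, 361 without alveolar macrophage-like clusters, 33 without all phagocyte-like clusters and cluster 20, 419 in cluster 20, 2 in cluster 13, 59 in dendritic cells, 316 in monocytes, 14 in neutrophils and 1022 between tissues. The count over all cells was 1249 with equal weight per cell in limma, which moved the median of all genes from -0.04 to 0.12, 6 without alveolar macrophage-like clusters (706 by DESeq2), 33 without all phagocyte-like clusters, and 0 without cluster 20 as well (286 by DESeq2; 1071 genes at an unadjusted edgeR p under 0.05). DESeq2 called 624 genes between tissues, 96 in cluster 20, 43 in dendritic cells and 34 in monocytes. With no low-count filter edgeR called 27 genes in B cells, 50 in T cells, 5 in cluster 13, 275 in cluster 20, 152 in dendritic cells, 86 in monocytes and 3 in neutrophils. With clusters of the lung samples alone it called 5 in B cells, 0 in cluster 20 and 13 in dendritic cells; without the highest Scrublet scores 0 in cluster 20 and 4 in monocytes; with RLE size factors 16 in cluster 20.

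The T cell difference was -17.2 percentage points among named clusters and -16.8 without the highest Scrublet scores (exact p = 0.0571 for both). The monocyte log2 ratio of cell numbers was -1.93 (edgeR adjusted p = 0.059), and -2.14 with the replicate block (edgeR adjusted p = 0.0182). The difference in genes per cell fell to 437 without alveolar macrophage-like cells (exact p = 0.343). Leaving out 1 sample gave 1280 to 2381 genes over all cells, 143 to 460 between tissues, 0 to 19 in dendritic cells, 0 to 14 in monocytes, 0 to 3 in cluster 20, 0 to 1 in B cells, and 0 in T cells, neutrophils and cluster 13. It gave differences of 2095 to 3717 UMIs and 531 to 1091 genes per cell, 32.2 to 54.3 percentage points for alveolar macrophages, 6.16 to 10.1 for cluster 20, -21.2 to -13.7 for T cells, -15.1 to -8.49 for monocytes and -20.3 to -0.55 for neutrophils, and 3 to 7 classes with an exact p under 0.05.

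Directions turned for Chil3 without alveolar macrophage-like clusters (-0.80, -0.86 with the block, -0.79 by DESeq2), for Dhrs7b (-0.071, -0.14, -0.047), Mvd (-0.0013, -0.11, -0.014), Marco (-0.090, and -0.049 by DESeq2) and Napsa (0.023, 0.039 with the block, 0.025 by DESeq2) without phagocytes and cluster 20, and for Cdh1 (-0.25) without phagocytes. The share of dendritic cells turned with lung clusters alone (-0.076), without positive sample 1 (-0.41) and without negative sample 4 (-0.060), and that of cluster 13 without positive sample 4 (-0.85). Without 1 sample these shares differed by -0.41 to 0.74 and -0.85 to 2.82 percentage points. The cause was not tested. Of the 92 genes named over all cells, 81 stayed on the same side of the threshold with equal weight per cell, 91 by DESeq2, 90 with the block and 7 without alveolar macrophage-like clusters (55 by DESeq2, 39 with the block). The smallest classes held 7 to 100 cells in a sample, and the part of cell number in their calls was not tested.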

Other observations

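Several gene lists not described above were tested over all kept cells, where 11.5% of all genes tested were called higher and 6.80% lower. Of 17 genes of extracellular matrix and remodelling 7 were called higher and 1 lower, with a median log2 difference of 0.77. Of 14 complement and Fc receptor genes 3 were called higher, of 10 iron handling genes 2, of 16 redox and detoxification genes 3 and of 18 oxidative phosphorylation genes 1, with 0 called lower in each. Of 18 genes of activated neutrophils 1 was called higher, of 13 plasmacytoid dendritic cell genes 3 were called lower, of 12 MHC class I genes 1 was called lower, and of 12 nonclassical monocyte genes 1 was called higher and 2 lower. A count of 1 in a list of 12 or 18 is near or below the share over all genes.

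When the lung samples were clustered alone, further small groups appeared. A cluster led by Mgp, Fmo2 and Bgn held 77 positive and 14 negative cells, and one led by Pdzd2, Gucy1a1 and Postn held 25 positive cells and 0 negative ones. A macrophage cluster led by Prg4, Alox15 and Serpinb2 held 43 positive and 4 negative cells. The first was at 0.813%, 0.969%, 1.81% and 1.03% of positive and 0.0362% to 0.198% of negative samples, with no overlap (exact p = 0.0286, adjusted over 15 classes 0.0429). The second overlapped (exact p = 0.429), and 24 of its 25 cells were in positive sample 1. Relative to the median of their own sample, the median UMI counts of the first and the second cluster were 0.327 and 0.276. The cells of the macrophage cluster were not tested apart from the rest of their class.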
